A study of Danio rerio and Aquarana catesbeiana with 12 samples.

Results

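The zebrafish genes cyp27c1, cyp27a3, cyp27a4, cyp27a5, cyp27a6 and cyp27a7 belong to the CYP27 family of cytochrome P450 enzymes. They were chosen by gene symbol, and each of the 6 had exactly 1 record under its symbol among the 18315 transcript records of the zebrafish table. The libraries came from dissected retinal pigment epithelium (RPE), the pigmented layer that recycles vitamin A for the photoreceptors. In the series' labels, 3 libraries are from fish given thyroid hormone for 3 weeks and 3 from fish given a vehicle control for 3 weeks. The form and dose of the hormone and the strain, age and number of fish behind a library are not given in the sources used here. RNA was amplified during library construction, and nothing says that replicates came from separate fish, and p-values therefore reflect only library-to-library spread, which may be technical.

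CYP27 enzymes sit in mitochondria and take electrons from ferredoxin. CYP27C1 desaturates vitamin A1 to vitamin A2. A chromophore derived from vitamin A2, bound to opsins, shifts the light absorption of photoreceptors to longer wavelengths. CYP27A1, the mammalian relative of the cyp27a genes, oxidises the side chain of sterols in bile acid synthesis and can hydroxylate vitamin D. The separate roles of the zebrafish cyp27a copies are not given in the sources used here. The series title names cyp27c1 as the converting enzyme, and the comparison asks what hormone treatment did to the RNA of cyp27c1 and its relatives.

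Total counts were 6647597, 12530697 and 11161495 in the hormone libraries and between 10582772 and 11739178 in the vehicle libraries. RPE and photoreceptor RNA were both abundant. The summed level of the 12 measured of 13 RPE and melanin markers was 15455 to 38351 CPM (counts scaled by library total) with hormone, against 10740 to 11301 CPM with vehicle. The 16 measured of 17 rod markers summed to 47499 to 58430 CPM with hormone, against 70222 to 82716 CPM with vehicle, so the groups did not overlap in either sum. With rpe65a left out, the RPE and melanin sums did overlap. Sums of cone markers (15 of 15 measured; 10072 to 24259 against 11195 to 16927 CPM) and of inner retina and Muller glia markers (22 of 24; 1238 to 2319 against 1328 to 1978 CPM) overlapped. Hormone replicate 1 had the lowest total count, the lowest RPE sum of its group and the highest cone and inner retina sums of all 6 libraries. Markers of blood (15 of 17 measured; 893.7 to 1673 against 1382 to 4069 CPM), endothelium (10 of 12; 40.7 to 134.6 against 61.1 to 65.7 CPM) and iridophores and xanthophores (8 of 9; 423.9 to 840.9 against 542.4 to 639.5 CPM) overlapped too. Of 10 liver markers 4 were measured, and their sums also overlapped (703 to 1908 against 1260 to 1739 CPM). No measured marker was at 0 in any library. In such bulk samples fewer cells of a type and less RNA per cell cannot be told apart.

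In the hormone libraries cyp27c1 was among the most abundant RNAs of the tissue, and each of the 5 cyp27a genes was below it in every library. Ranked by RPKM over all records, cyp27a7 stood at 8526 to 9232 with hormone and 6183 to 6469 with vehicle. The ranks of cyp27a3 were 16336 to 17267 with hormone and 13934 to 15316 with vehicle, and the other cyp27a genes ranked between these. The level of cyp27c1 was 1252, 3434 and 2592 RPKM (CPM per kilobase of record length) with hormone. In the vehicle libraries it was 70.3, 83.4 and 47.5 RPKM. All hormone libraries lay above all vehicle libraries, with a 15.0-fold gap between the nearest libraries of the groups. By RPKM it ranked 25, 13 and 16 of all records in hormone replicates 1, 2 and 3, against 812, 657 and 1285 in vehicle replicates 1, 2 and 3. It took 0.368% of all counts in hormone replicate 1 (Wilson 95% interval 0.363 to 0.372%), 0.864% in replicate 2 (0.859 to 0.869%) and 0.587% in replicate 3 (0.583 to 0.592%). In vehicle replicates 1, 2 and 3 the shares were 0.0197% (0.0189 to 0.0205%), 0.0226% (0.0217 to 0.0235%) and 0.0117% (0.0110 to 0.0124%). These intervals cover counting error only.

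Among the 46 records of cytochrome P450 genes, cyp27c1 had the highest RPKM in each of the 3 hormone libraries and held 80.3 to 87.4% of all P450 counts there. In the vehicle libraries it ranked 1 to 3 and held 12.1 to 22.1%. The next P450 by RPKM in every hormone library was cyp24a1, for the enzyme that inactivates vitamin D, at 74.1, 171 and 245.2 RPKM. In every vehicle library cyp2p9, a P450 of another family, was the highest apart from cyp27c1, at 73.4, 70.5 and 84.3 RPKM.

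The fitted difference for cyp27c1 was a log2 fold change of 5.18 (SE 0.51), 36.2-fold. The quasi-likelihood test of edgeR gave an adjusted p of 0.0571 over all records, outside the threshold of 0.05, and an unadjusted p of 2.56e-05, the sixth smallest of all. By a two-sided exact permutation test p was 0.1, the lowest value this number of libraries can give. DESeq2 called it higher, at an adjusted p of 6.79e-31, and the authors' deposited table marks it, at a p of 5.51e-34. Of all records, the edgeR test called 1 (0.00546%), on the higher side. DESeq2 called 292 (1.59%), with 0.906% of all records higher and 0.688% lower, and 171 (0.934%) are marked in the authors' deposited table. The edgeR call depended on which library was left out: without hormone replicate 1 the adjusted p was 0.00895 and the log2 fold change 5.49, and without any one of the other 5 libraries the adjusted p was 0.235 to 0.46.

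**Figure D1:**
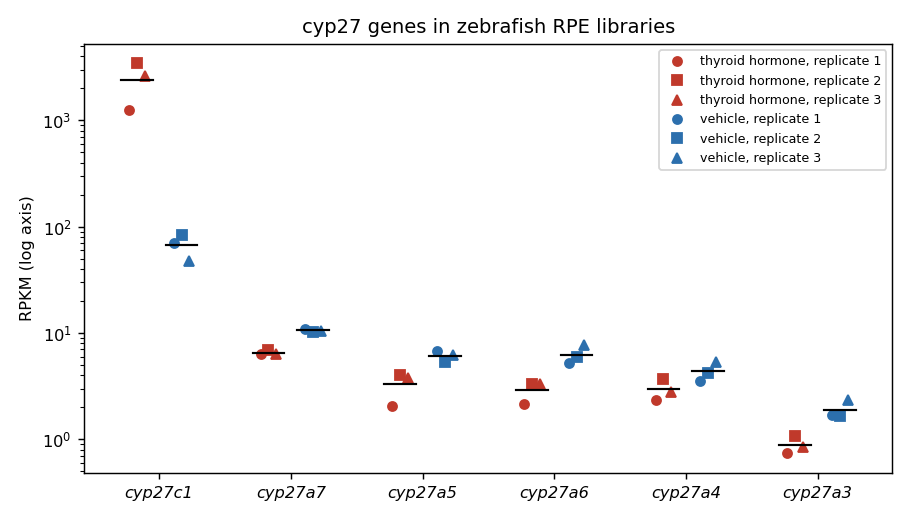
Level of each gene in each library, in RPKM on a log axis; red symbols are hormone and blue symbols vehicle libraries, symbol shapes are replicates and black lines are group means. The hormone libraries of cyp27c1 lie at 1252 to 3434 RPKM, above its vehicle libraries at 47.5 to 83.4, while hormone means of the 5 cyp27a genes lie below their vehicle means.

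The order of the hormone libraries was the same for cyp27c1 as for rpe65a, the RPE gene for the enzyme that isomerises retinoids to the 11-cis form. The other measured RPE and melanin markers had this order too, except pmelb, so it is not particular to this pair. The rpe65a level was 7190, 18669 and 15065 RPKM with hormone, against 4319, 4164 and 3862 RPKM with vehicle. Expressed as a share of the rpe65a level, cyp27c1 was at 17.4, 18.4 and 17.2% with hormone, against 1.63, 2.0 and 1.23% with vehicle. The SD over hormone libraries was 0.75 for log2 cyp27c1 and 0.051 for the log2 ratio to rpe65a. A steady ratio is not particular to rpe65a. The gene rlbp1b, of the retinol list below, was at 1341, 3503 and 2863 RPKM with hormone, near the cyp27c1 level in each library. With vehicle rlbp1b was at 1353, 1302 and 1328 RPKM. Over vehicle libraries the SD was 0.42 for log2 cyp27c1 and 0.35 for the log2 ratio. Relative to rpe65a the hormone libraries were higher by 3.48 on the log2 scale, 11.1-fold. This ratio was chosen after the values were seen and has no test.

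The same difference, taken as cyp27c1 over the summed CPM of the RPE and melanin markers, was 3.82 on the log2 scale, and 4.82 with rpe65a left out of the sum. In both, all hormone libraries lay above all vehicle libraries. Without rpe65a the marker sums of the groups overlapped, at 3002, 6016 and 5601 CPM with hormone against 3820, 3529 and 4226 CPM with vehicle. These ratios carry no test. Whether the amount of RPE in a sample had a part in the fold change of cyp27c1 was not tested.

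All 5 cyp27a genes had lower means with hormone than with vehicle, and a log2 fold change below 0, as did 48.3% of all records; none passed the edgeR test over all records. The most abundant was cyp27a7, at 6.36, 6.90 and 6.37 RPKM with hormone against 10.97, 10.2 and 10.5 RPKM with vehicle. Its groups lay apart, with replicates close together within each (log2 fold change -0.69, SE 0.12). The edgeR adjusted p was 0.228 and the unadjusted p 0.00104, while DESeq2 called it, at an adjusted p of 0.00114.

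The gene cyp27a5 was at 2.06, 4.04 and 3.74 RPKM with hormone, against 6.76, 5.36 and 6.21 RPKM with vehicle. The gene cyp27a6 was at 2.13, 3.32 and 3.28 RPKM with hormone, against 5.24, 5.89 and 7.67 RPKM with vehicle. In both genes every hormone library was below every vehicle library. The log2 fold change of cyp27a5 was -0.89 (SE 0.28), with an edgeR adjusted p of 0.553. That of cyp27a6 was -1.09 (SE 0.26), with an edgeR adjusted p of 0.373 and a DESeq2 adjusted p of 0.0501.

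The gene cyp27a4 was at 2.35, 3.72 and 2.77 RPKM with hormone, against 3.53, 4.22 and 5.28 RPKM with vehicle. Its groups overlapped, since hormone replicate 2 was above vehicle replicate 1 (log2 fold change -0.55, SE 0.26, edgeR adjusted p = 0.786). The scarcest was cyp27a3, at 0.736, 1.06 and 0.852 RPKM with hormone, against 1.68, 1.66 and 2.34 RPKM with vehicle. Its record held only 12, 28 and 18 reads with hormone, against 46, 40 and 51 with vehicle, and counting error alone is 28.9% at 12 reads. Its groups did not overlap (log2 fold change -1.08, SE 0.29, edgeR adjusted p = 0.446). Like cyp27c1, each of the 5 had its lowest hormone value in replicate 1. For cyp27a7, however, hormone replicates 1 and 3 were nearly equal, at 6.359 and 6.372 RPKM.

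At an unadjusted p under 0.05 in edgeR, 4 of the 5 cyp27a genes were lower with hormone, while 3.18% of all records were. Groups did not overlap, with hormone lower, in the same number, 4 of 5, against 6.4% of all records. The median log2 fold change was -0.89 for the 5 genes and 0.01 for all records. The unadjusted edgeR p values were 0.00491 for cyp27a6, 0.00851 for cyp27a3, 0.0161 for cyp27a5 and 0.0738 for cyp27a4. In the authors' deposited table none of the 5 is marked; its p is lowest for cyp27a6, at 0.00574, and highest for cyp27a4, at 0.150. The 5 are members of 1 subfamily, and whether their records share reads was not tested, so they are not counted as independent observations. Summed to 1 feature they had a log2 fold change of -0.79 (SE 0.15), with an edgeR adjusted p of 0.251. The summed level was 13.6, 19.1 and 17.02 RPKM with hormone, against 28.2, 27.3 and 32.0 RPKM with vehicle.

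The hormone libraries, with less cyp27a RNA, also had the lower rod marker sums and the higher RPE and melanin sums. The latter depended on rpe65a, since without it the RPE and melanin sums of the groups overlapped. Of the 12 measured RPE and melanin markers, 9 had positive and 3 negative log2 fold changes. Among the negative was best1, lower with hormone without overlap, at a mean of 389.9 CPM against 681.2 CPM with vehicle. Single rod markers were mixed: the groups did not overlap, with hormone lower, for 4 of 16, against 6.4% of all records. They overlapped for the other 12, and the median log2 fold change was -0.16. Without rho, the rod opsin gene, the sums were 27458, 18099 and 20877 CPM with hormone, against 34010, 32129 and 29952 CPM with vehicle, still without overlap. As log2 of summed cyp27a CPM over the rod marker sum, cyp27a stood at -10.89, -10.31 and -10.78 with hormone, against -10.41, -10.37 and -10.40 with vehicle. These overlapped, and the means differed by -0.27, or by -0.25 with rho left out of the sum, again with overlap. In both, hormone replicate 2 was above all vehicle libraries, and hormone replicates 1 and 3 were below them. Over the RPE and melanin sum the difference was -2.08, and -1.07 with rpe65a left out, and in both the groups did not overlap. These ratios carry no test. Whether other cells of the dissected tissue had a part in the cyp27a values was not tested.

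Among themselves the cyp27a genes, each taken by its single record, kept a partly fixed order. In all 6 libraries the record of cyp27a7 was the highest and that of cyp27a3 the lowest per length. With hormone, cyp27a5, cyp27a4 and cyp27a6 did not differ beyond their spread, at 3.28 ± 1.07, 2.95 ± 0.70 and 2.91 ± 0.68 RPKM (SD, n = 3). With vehicle, cyp27a6 and cyp27a5 did not differ beyond theirs, at 6.27 ± 1.26 and 6.11 ± 0.71 RPKM, and both were above cyp27a4, at 4.34 ± 0.88 RPKM, in 3 of 3 libraries. As a share of the summed cyp27a RPKM, cyp27a7 held 40.1 ± 5.7% with hormone and 36.4 ± 3.2% with vehicle. For cyp27a6 the shares were 17.5 ± 1.8% with hormone and 21.4 ± 2.7% with vehicle. These orders and shares depend on how records were split. The record si:dkeyp-68f9.12, described below, was at 3.82 RPKM in hormone replicate 2 and 3.835 to 4.077 RPKM with vehicle. If its reads belong to cyp27a4, that gene would be above cyp27a5 and cyp27a6 in every vehicle library. It would also be above cyp27a7 in hormone replicate 2.

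The branches of the family stood in different proportion to each other. Of the RPKM summed over all 6 genes, cyp27c1 held 98.9 to 99.5% with hormone and 59.7 to 75.3% with vehicle. The log2 ratio of cyp27c1 to summed cyp27a was 6.52, 7.49 and 7.25 with hormone, against 1.32, 1.61 and 0.57 with vehicle, a difference of 5.92. The two-sided exact permutation p was 0.1, the smallest possible, and 0.157 after Benjamini-Hochberg adjustment over 11 ratios. The ratios to each single cyp27a gene likewise did not overlap between groups and were higher with hormone, with differences of 5.66 for cyp27a4 to 6.21 for cyp27a6. Of the ratios of a cyp27a gene to the other 4, those of cyp27a3 did not overlap between groups (difference -0.29), and the other 4 ratios overlapped. For those 5 ratios the exact permutation p was 0.1 to 0.6. Since 0.1 is the smallest possible, this test could not pass 0.05 for any of them. The ratio of cyp27a3 rests on 12, 28 and 18 reads with hormone and leaves out the second record described below. With that record added, the log2 fold change of cyp27a3 was -0.87, against -1.08 alone and -0.79 for the 5 cyp27a genes summed.

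How the records were built touches these levels. All 5 records of the table that carry an Ensembl transcript ID are CYP27 genes, namely cyp27a3, cyp27a4, cyp27a5, cyp27a6 and cyp27b1. The records of cyp27c1 and cyp27a7 carry RefSeq accessions. The RefSeq table of assembly GRCz12tu lists the accession of cyp27a7 as cyp27a1.1. It gives a further record, si:dkey-91i10.3 in the file, as cyp27a3, with the same length of 2176 bases as the cyp27a3 record. That second record had 17, 30 and 25 reads with hormone, against 45, 43 and 42 with vehicle, so the cyp27a3 record held 49.1% of the reads of both (exact 95% interval 44.1 to 54.2%). The record si:dkeyp-68f9.12, a synonym of cyp27a1.4 in that table, had 24, 88 and 60 reads with hormone, against 96, 86 and 73 with vehicle. Set beside 32, 82 and 49 reads with hormone and 81, 85 and 96 with vehicle in cyp27a4, this is a share of 49.9% for cyp27a4 (46.5 to 53.3%). Both intervals pool the 6 libraries and cover counting error only.

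The source tables do not say that si:dkeyp-68f9.12 and cyp27a4 are the same gene. If reads were split between such records, the level of each single record understates the gene. With the paired records added together, the log2 fold change was -0.87 (SE 0.20, edgeR adjusted p = 0.351) for cyp27a3 and -0.49 (SE 0.24, edgeR adjusted p = 0.804) for cyp27a4. Taken alone, si:dkey-91i10.3 had -0.66 (SE 0.24) and si:dkeyp-68f9.12 had -0.43 (SE 0.31). The records of cyp27c1 and cyp27a7 had no such partner by accession or synonym. Those of cyp27a5 and cyp27a6 carry Ensembl transcript IDs and matched no current symbol, so a partner could not be looked up for them.

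**Figure D2:**
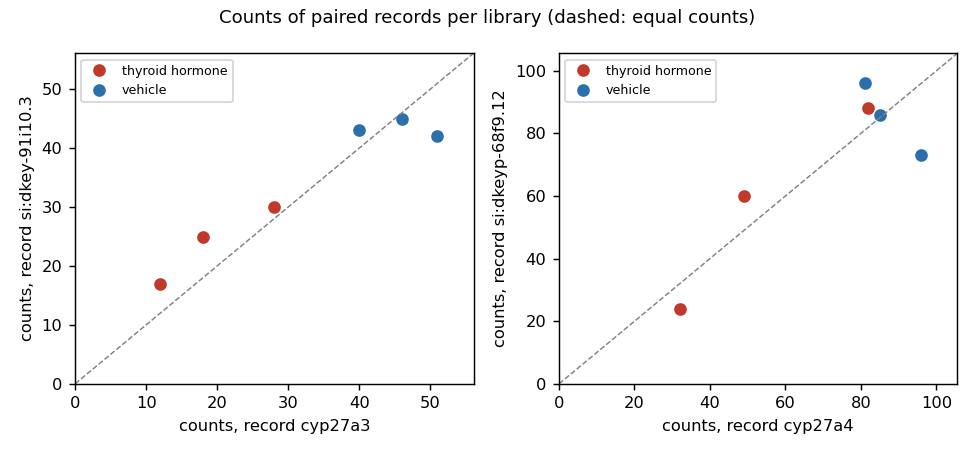
Reads per library in the cyp27a3 record against si:dkey-91i10.3 (left) and in the cyp27a4 record against si:dkeyp-68f9.12 (right); red points are hormone and blue points vehicle libraries. Points lie near the dashed line of equal counts, with 49.1% and 49.9% of the reads in the cyp27a3 and cyp27a4 records.

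A further relative, cyp27a2 (LOC558239 in the file), is outside the 6 genes. It had 1.504, 1.13 and 1.71 RPKM with hormone, against 0.565, 0.963 and 1.48 RPKM with vehicle, and the groups overlapped (log2 fold change 0.53, SE 0.43, edgeR adjusted p = 0.93). For cyp27b1, whose enzyme activates vitamin D, the level was 1.84, 4.89 and 3.32 RPKM with hormone, against 2.61, 3.62 and 4.34 RPKM with vehicle, with overlapping groups (log2 fold change -0.05, SE 0.39, edgeR adjusted p = 0.9997). Beside the cyp24a1 values with hormone given above, the vehicle libraries had 5.59, 6.98 and 21.7 RPKM (log2 fold change 3.84, SE 0.69). Its groups did not overlap, and the adjusted p was 0.228 in edgeR and 5.95e-07 in DESeq2. With cyp27b1 it was 1 of 2 measured members of a list of 5 other mitochondrial P450 genes. DESeq2 called cyp24a1 alone of these, as higher, against 0.906% of all records.

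**Figure D3:**
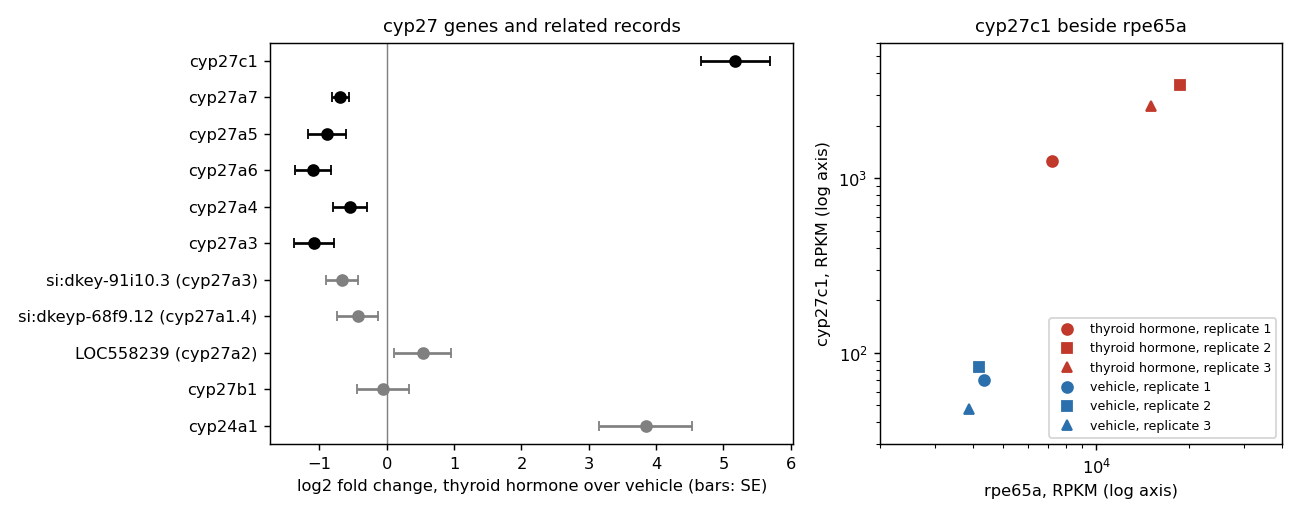
Left, fitted log2 fold change of hormone over vehicle with its SE, for the 6 genes in black and related records in grey; right, cyp27c1 against rpe65a in RPKM per library, both on log axes. The value of cyp27c1 is 5.18 and those of the 5 cyp27a genes run from -1.09 to -0.55; on the right, hormone libraries share a cyp27c1 level of 17.2 to 18.4% of rpe65a.

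Position along the chromosomes was compared with the gene order of GRCz12tu, in which cyp27c1 and cyp27a2 lie on chromosome 6 with map3k2 between them. The genes cyp27a3, cyp27a1.1 and cyp27a1.4 lie on chromosome 9, the last pair with cyp27a1.2 and zgc:136333 between them. Of the 6 nearest measured protein-coding genes of cyp27c1, 3 on each side, 5 had a positive log2 fold change and 1 a negative one (median 0.49). The gene ercc3, for a DNA helicase of transcription and repair that follows cyp27c1 directly, was at 41.6 ± 10.03 CPM with hormone and 18.7 ± 2.57 CPM with vehicle (SD, n = 3 each). Its log2 fold change was 1.15 (SE 0.22), with an adjusted p of 0.245 in edgeR and 0.00194 in DESeq2. The next gene, wdr12, for a ribosome assembly protein, was at 16.1 ± 2.44 CPM with hormone and 9.85 ± 0.52 CPM with vehicle. Its log2 fold change was 0.71 (SE 0.17), with an adjusted p of 0.352 in edgeR and 0.0467 in DESeq2.

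The groups also lay apart, with hormone higher, for nop58, of the small nucleolar RNA machinery (log2 fold change 0.44, SE 0.18). For the kinase gene map3k2 (log2 fold change 0.39, SE 0.21) they did not overlap but nearly touched. Its hormone replicate 3 was at 15.14 CPM and its vehicle replicate 3 at 15.0 CPM. So 4 of the 6 neighbours of cyp27c1 had groups that did not overlap on the higher side, against 6.86% of all records. At an unadjusted edgeR p under 0.05 there were 3, ercc3, wdr12 and nop58, against 3.7% of all records on that side. None passed the edgeR test over all records. Around cyp27a7, 2 of 6 neighbours had positive and 4 negative values, from -0.43 for the cyp27a1.4 record to 0.50 for bcs1l. Around cyp27a3 all 6 were at or above 0, from 0.00 for tsn to 0.77 for rnd3b. At an unadjusted edgeR p under 0.05 there was none around either of these. Their neighbours also held groups that did not overlap. Hormone was higher for bcs1l beside cyp27a7 and for mmadhcb beside cyp27a3, and lower for the cyp27a1.4 record beside cyp27a7. Neighbours were chosen by place, but after values of the series had been seen.

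**Figure D4:**
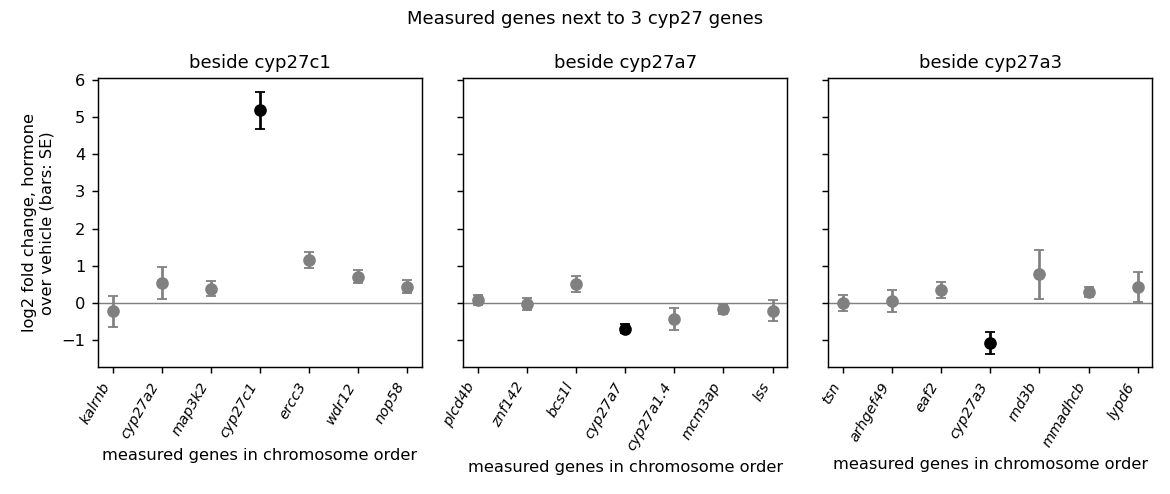
Fitted log2 fold change of hormone over vehicle, with its SE, for the 3 measured genes on each side of cyp27c1, cyp27a7 and cyp27a3 in the gene order of GRCz12tu (cyp27 gene in black). Beside cyp27c1, at 5.18, ercc3 stands at 1.15; neighbours of cyp27a7 run from -0.43 to 0.50 and those of cyp27a3 from 0.00 to 0.77.

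Likeness of pattern was measured as the root mean square difference of log2 CPM, each gene centred on its own mean over the 6 libraries, against 16450 records whose mean log2 CPM reached 1. The genes nearest to cyp27c1 were dhrs12la (0.876), of the short-chain dehydrogenase family and the 1 record called by edgeR, LOC100537033 (0.982) and cyp24a1 (1.05). The level of dhrs12la was 11.9, 11.6 and 11.5 CPM with hormone, against 0.555, 0.812 and 0.800 CPM with vehicle. It thus reached the required mean only through the hormone libraries, where its values were close together, unlike those of cyp27c1. The level of LOC100537033 was 47.2, 63.5 and 48.8 CPM with hormone, against 4.52, 1.99 and 5.50 CPM with vehicle. The 5 cyp27a genes were 2.86 to 3.12 away from cyp27c1 and 0.133 to 0.334 away from each other. Among the 16450 records, those nearest to cyp27a3 were igf2bp2a (0.130), for an RNA-binding protein, cyp27a6 (0.133) and lrrc58b (0.133). The level of igf2bp2a was 0.934, 1.652 and 1.339 CPM with hormone, against 2.776, 2.165 and 3.799 CPM with vehicle. This gene thus reached the required mean only through the vehicle libraries. The cyp27a3 record held 12 reads in hormone replicate 1, where counting error alone is 28.9%. The order of these nearly equal distances was therefore not resolved. Nearest to cyp27a7 were faimb (0.0513), the mitochondrial creatine kinase gene ckmt2b (0.0625) and the calmodulin-dependent kinase gene camk1ga (0.0693). Nearest to cyp27a6 was slc16a9a, of the monocarboxylate transporter family (0.0627), at 31.0, 44.8 and 46.4 CPM with hormone against 75.3, 79.7 and 115.8 CPM with vehicle. Nearest to cyp27a5 was LOC100151196 (0.0681) and to cyp27a4 LOC100003115 (0.0594). These distances are descriptions over 6 libraries and carry no p. They take in the difference between the groups, so genes of similar log2 fold change lie near each other. They are therefore not a result separate from the fold changes.

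The other genes of these pathways were taken from 7 lists, and none of their members passed the edgeR test over all records. Of the listed ferredoxin and ferredoxin reductase genes, 3 were measured. The log2 fold change was positive for fdxr and fdx1 and negative for fdx2 (-0.15, SE 0.24). The ferredoxin reductase gene fdxr was at 24.7, 70.4 and 71.0 RPKM with hormone, against 35.9, 34.7 and 43.0 RPKM with vehicle. Hormone replicate 1 was below all vehicle libraries and the other two were above them (log2 fold change 0.55, SE 0.39, edgeR adjusted p = 0.908). The ferredoxin gene fdx1 was at 34.9, 51.7 and 52.0 RPKM with hormone, against 37.0, 35.7 and 43.2 RPKM with vehicle, with the same order (log2 fold change 0.26, SE 0.19, edgeR adjusted p = 0.912).

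Enzymes of oxysterol and bile acid synthesis, the mammalian setting of CYP27A1, had 12 measured members, 9 with negative and 3 with positive log2 fold changes (median -0.31, against 0.01 over all records). DESeq2 called 1 of them lower, against 0.688% of all records, namely ch25hl1.1, annotated as cholesterol 25-hydroxylase like. The record of ch25hl1.1 held 0, 19 and 0 reads with hormone, against 1101, 627 and 570 reads with vehicle. All hormone libraries were far below all vehicle libraries, with hormone replicates 1 and 3 at 0 reads. In RPKM this was 0, 1.4 and 0 with hormone, against 78.1, 50.6 and 51.0 with vehicle. The fitted log2 fold change was -6.75 (SE 0.89), which depends on the prior count since 2 libraries are at 0, and the adjusted p was 0.114 in edgeR and 0.0177 in DESeq2. The sterol carrier gene scp2b, the next most abundant, was at 27.6 RPKM with hormone and 30.9 RPKM with vehicle (log2 fold change -0.16, SE 0.27).

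Of receptors that bind oxysterols and genes of sterol efflux, 9 were measured, 8 with negative and 1 with a positive log2 fold change (median -0.20). No member was called by DESeq2, and 1 was lower at an unadjusted edgeR p under 0.05 (3.18% of all records were), mylipa, for a ubiquitin ligase of the lipoprotein receptor (log2 fold change -0.38, SE 0.14), named after its values were seen. The lipid synthesis regulator srebf1 was at 87.8 RPKM with hormone and 90.3 RPKM with vehicle, and the sterol exporter gene abca1a at 34.0 RPKM with hormone and 39.2 RPKM with vehicle.

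Of 32 measured genes that take up, store and convert retinol, the substrate of CYP27C1, 20 had positive and 12 negative log2 fold changes (median 0.28). DESeq2 called 1 higher, rpe65a, and 1 lower, lratb, against 0.906% and 0.688% of all records. The lratb record has the current symbol lratb.1. The related lratb.2 was at 74.7 RPKM with hormone and 80.2 RPKM with vehicle (log2 fold change -0.10, SE 0.33), and its groups overlapped. Those of lrata overlapped too (log2 fold change 0.20, SE 0.60). The photoisomerase gene rgrb was at 2265, 8135 and 7034 RPKM with hormone, against 2590, 2678 and 3301 RPKM with vehicle, again with replicate 1 lowest (log2 fold change 1.03, SE 0.49, edgeR adjusted p = 0.788). Of 9 genes of retinoic acid metabolism and binding, 6 were positive and 3 negative (median 0.49), with none called by DESeq2. Among them crabp1a, a retinoic acid binding protein, was at 47.5, 19.3 and 25.9 RPKM with hormone, against 16.4, 16.8 and 15.0 RPKM with vehicle. The retinoic acid hydroxylase gene cyp26a1 was at 33.1, 6.52 and 11.3 RPKM with hormone, against 19.6, 10.7 and 2.11 RPKM with vehicle. A list of thyroid receptor, partner and deiodinase genes, which also held the transcription factor gene klf9, had 12 measured members. Of these, 8 were positive and 4 negative (median 0.19), with 4 called higher by DESeq2, against 0.906% of all records. Those called were thraa, thrab, thrb and the deiodinase gene dio3b. The log2 fold change was 1.69 (SE 0.24) for dio3b and 0.93 (SE 0.14) for thrab. Among the negative was klf9 (log2 fold change -0.88, SE 0.32), which DESeq2 did not call (adjusted p = 0.396). The receptor genes thrb and thraa were at 111.2 to 131.1 and 74.5 to 95.6 RPKM with hormone, against 61.9 to 79.5 and 39.0 to 50.3 RPKM with vehicle.

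**Figure D5:**
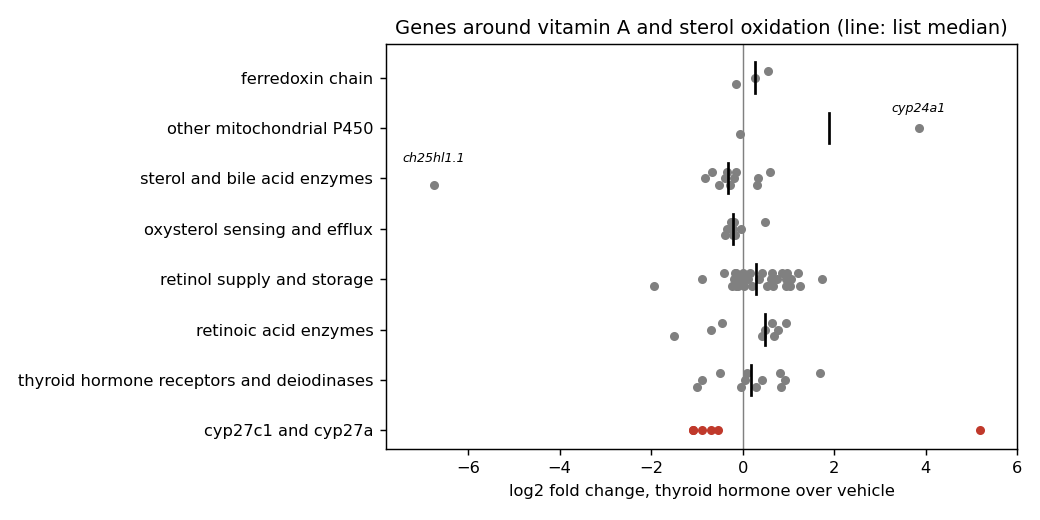
Fitted log2 fold change of hormone over vehicle for every measured member of 7 pathway lists (grey points; black line, list median) and for the 6 cyp27 genes (red). The point farthest left is ch25hl1.1, at -6.75, and cyp27c1 lies farthest right, at 5.18, while cyp24a1 stands at 3.84.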

How the data were processed

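RNA was sequenced from 6 zebrafish RPE libraries, 3 per group; the bullfrog libraries were not used here. Per the labels' protocols, libraries were made with an amplification kit and run in 1 lane. Bowtie 0.12.7 and edgeR are named in the submitters' processing notes; the transcript set and genome build are not given in the sources used here. The authors deposited raw counts per record, which were whole numbers. The deposited log2 fold change and p-value columns are the authors' comparison; that fold change is vehicle over hormone by its sign against the counts, and its sign was turned here. One nameless entry, equal to the column sums in all 6 libraries, was left out.

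Hormone was compared with vehicle by the quasi-likelihood test of edgeR 4.0.16 (R 4.3.3) with TMM scaling and default settings, and p-values were Benjamini-Hochberg adjusted over 18315 records at a threshold of 0.05; filterByExpr removed no record. The SE is the log2 fold change over the square root of F. CPM and RPKM use TMM-scaled totals and the deposited record lengths, and log2 CPM a prior count of 2. Alternatives were RLE and total count scaling, DESeq2 1.42.0, limma 3.58.1 voom, the exact test, other filters, a replicate block, the inner retina marker score as a covariate, each library left out, and summed records; adding second records of a gene, the newer quasi-likelihood fit and the rod sum without rho were chosen after seeing the data. The code was tested on simulated counts. Current symbols come from the RefSeq table of GRCz12tu, which holds 12528 of the accessions, with 502 further records matched by a synonym. The members, lists and tests were chosen with earlier results of these data known. Named were all 6 members, the 3 nearest profiles of each (for some members only the nearest are printed), and of each list those past the edgeR test, otherwise the 2 most abundant by RPKM. Outside this rule, list members called by DESeq2 and the genes fdx2, mylipa and klf9 were also named.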

Additional observations from a re-analysis of the deposited data

How the results depend on the processing

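The direction of all 6 genes was the same under every alternative that was run. For cyp27c1 the log2 fold change was 5.18 with DESeq2, 5.178 with the exact test of edgeR, 5.08 with total count scaling (adjusted p = 0.043) and 4.99 with a covariate for the inner retina markers (adjusted p = 0.00455), and under these 4 it passed the threshold; without each library in turn it ranged from 4.85 to 5.49. Of the 5 cyp27a genes, 0 passed in edgeR (4 had an unadjusted p under 0.05); 1 passed with DESeq2 (cyp27a7) and 2 with the covariate (cyp27a6 at 0.0205 and cyp27a7 at 0.0272), and 0 without any one library. Over all records the 1 call became 8 with total count scaling, 292 with DESeq2, 199 with the exact test and 493 with the covariate. It became 0 with limma voom (1226 at an unadjusted p under 0.05), with at least 10 counts in all 6 libraries (1149) and with the replicate block (1231), and 0 to 105 with 1 library left out (752 to 2734). The causes were not tested. With the replicate number as a block cyp27c1 had 5.10 (adjusted p = 0.205) and no cyp27a gene passed; the deviations of same-numbered libraries had correlations of 0.463, -0.395 and 0.105, so the numbers were not taken to pair the samples. The legacy setting and the absence of a filter gave the values of the edgeR fit itself. The difference in the log2 ratio of cyp27c1 to summed cyp27a was 5.63 to 6.21 over 9 alternatives. The lowest counts among the 6 genes were those of cyp27a3, at 12 to 51 reads a library.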
